A study of Mus musculus with 18 samples.

Results

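The genes described here encode 8 secreted factors, the IL-6 type and related cytokines Il6, Lif, Osm, Il27 and Il10 and the colony-stimulating factors Csf1, Csf2 and Csf3. They were taken by gene name from a count table that lists 56748 genes, of which 27701 had a count in any library. A filter on low counts kept 13691 genes for testing, and among them were 7 of these 8 genes. Il10 did not pass the filter and is given by its counts. IL-6, LIF and oncostatin M each bind a receptor of their own that works through the shared chain gp130, encoded by Il6st, and JAK kinases then activate STAT3. IL-27 also signals through gp130 and is made of a p28 subunit, encoded by Il27, and the subunit encoded by Ebi3, while IL-10 restrains macrophage activation through STAT3 from an unrelated receptor. The colony-stimulating factors act on myeloid cells: M-CSF (Csf1) maintains macrophages, GM-CSF (Csf2) activates them, and G-CSF (Csf3) drives the formation of neutrophils.

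RAW264.7 cells, an established mouse macrophage line transformed by Abelson leukemia virus, were exposed to the food antioxidant tert-butylhydroquinone (TBHQ) and to a bacterial or a viral type of stimulus. The question was how TBHQ given before a stimulus alters the response to it. Of 18 libraries, 3 came from each of 6 conditions, described by the study as biological replicates of 1 line, so that p-values measure the spread between these cultures. Control cells received no further treatment, TBHQ cells received 5 µM TBHQ and were harvested after 4 h, and LPS cells and PIC cells received 0.1 µg/mL lipopolysaccharide or 20 µg/mL polyinosinic-polycytidylic acid for 12 h. The LPS + TBHQ and PIC + TBHQ cells were kept with 5 µM TBHQ for 4 h, followed by 12 h with the stimulus. TBHQ alone was thus sampled earlier than the stimulated cells. The methods describe no change of medium before the stimulus, so whether TBHQ stayed during it is not clear. They also do not say if cells given a stimulus alone were cultured for the same total time. The methods give no harvest time for the control. The paper's timeline lists media only beside the stimuli given for 12 h, and a table note places treatments other than TBHQ in a 12 h design. Neither names the control's harvest outright, so that its time is not clear. In TBHQ vs control, and in other comparisons with the control if its time differed, treatment and time of harvest cannot be told apart. The TBHQ stock was made in DMSO and the control is described as medium only, so that TBHQ and its solvent cannot be told apart against the control. No DMSO is described for the sequenced LPS and PIC cells either, so the same holds for TBHQ before a stimulus.

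Total counts ran from 14423390 to 18851626 per library, with a median of 15742337. The macrophage identity was visible in the markers: all 8 macrophage markers were above the detection floor in at least 1 library, and none of them fell under 171 counts. Their summed level was 6346 FPKM in the control and 6113 FPKM with PIC, most of it from Lyz2. The single markers moved in either direction. In PIC vs control 4 were called higher and 3 lower, beside 28.6% and 30.1% of all genes. Their log2FC ran from 1.86 for Adgre1 to -0.85 for Csf1r. With TBHQ before LPS and before PIC, 3 of the 8 markers were called higher (Lyz2, Cd68 and Csf1r) and 3 lower. Of all genes, 11.7% were called higher and 12.2% lower with LPS, and 15.8% higher and 15.5% lower with PIC. Fcgr1 fell most of these markers, to 38.8% and 47.3% of the stimulated level. With TBHQ alone 1 marker was called higher and 4 lower, beside 14.2% and 14.8% of all genes, and Fcgr1 was at 41.2% of the control. Cd3e, Cd8a, Cdh1, Col1a2 and Ly6g had 0 counts in all 18 libraries, and the highest count of any T cell, fibroblast or epithelial marker was 8. The endothelial markers reached 26 counts, in Kdr. The other neutrophil marker, S100a8, had 3 to 67 counts and moved with the stimuli, with a mean of 0.777 FPKM in the control and 5.59 FPKM with PIC, and the part of S100a8-expressing cells in the results was not tested. In bulk RNA, fewer cells that make a transcript and less of it per cell cannot be told apart.

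Levels are given in FPKM (fragments scaled to gene length and library depth), which allows genes of different length to be compared. Differences between conditions are given as log2FC, the log2 fold change fitted by edgeR on counts, with a standard error (SE) from the replicate spread of log2 CPM (counts scaled to library depth). For this SE a prior count of 2 was added before the log, which narrows the spread at low counts. A gene was called when its false discovery rate (FDR), the Benjamini-Hochberg adjusted p over all 13691 genes tested, was under 0.05, with no limit on the fold. For each called change between 2 conditions that is given with a value, all 3 libraries of one condition lay on the same side of all 3 of the other in CPM, except for Il10rb. The detection floor was set at 3 counts per library, which equals 0.159 to 0.208 CPM, and a gene was at the floor in a condition when all 3 libraries held 3 counts or fewer. Csf2 was at the floor in 3 conditions, the control, TBHQ and LPS + TBHQ. Il10 was at the floor in 2 conditions, the control and PIC + TBHQ, and 11 of its 18 libraries held 3 counts or fewer. The other 6 genes were above the floor in all 18 libraries.

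In resting cells Osm was the most abundant of these transcripts, with a mean of 6.87 ± 0.243 FPKM (SD, n = 3), ahead of Csf3 at 3.4 ± 1.89 FPKM and Csf1 at 1.42 ± 0.382 FPKM. Il27, Il6 and Lif followed at 0.852, 0.466 and 0.266 FPKM, and the libraries of neighbours in this order did not overlap. With either stimulus Csf3 led by a wide margin, at 898 ± 31.4 FPKM with LPS and 1608 ± 29.4 FPKM with PIC. With PIC the order after Csf3 was Lif, Osm, Il27, Il6, Csf2, Csf1 and Il10, again with no overlap between neighbours. With LPS the order was Osm, Lif, Il6, Il27, Csf1, Csf2 and Il10, and there Il6 (3.83 to 4.39 FPKM) and Il27 (3.21 to 5.0 FPKM) overlapped. Csf3 and Osm held the first and second places in both conditions with TBHQ before a stimulus.

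**Figure D1:**
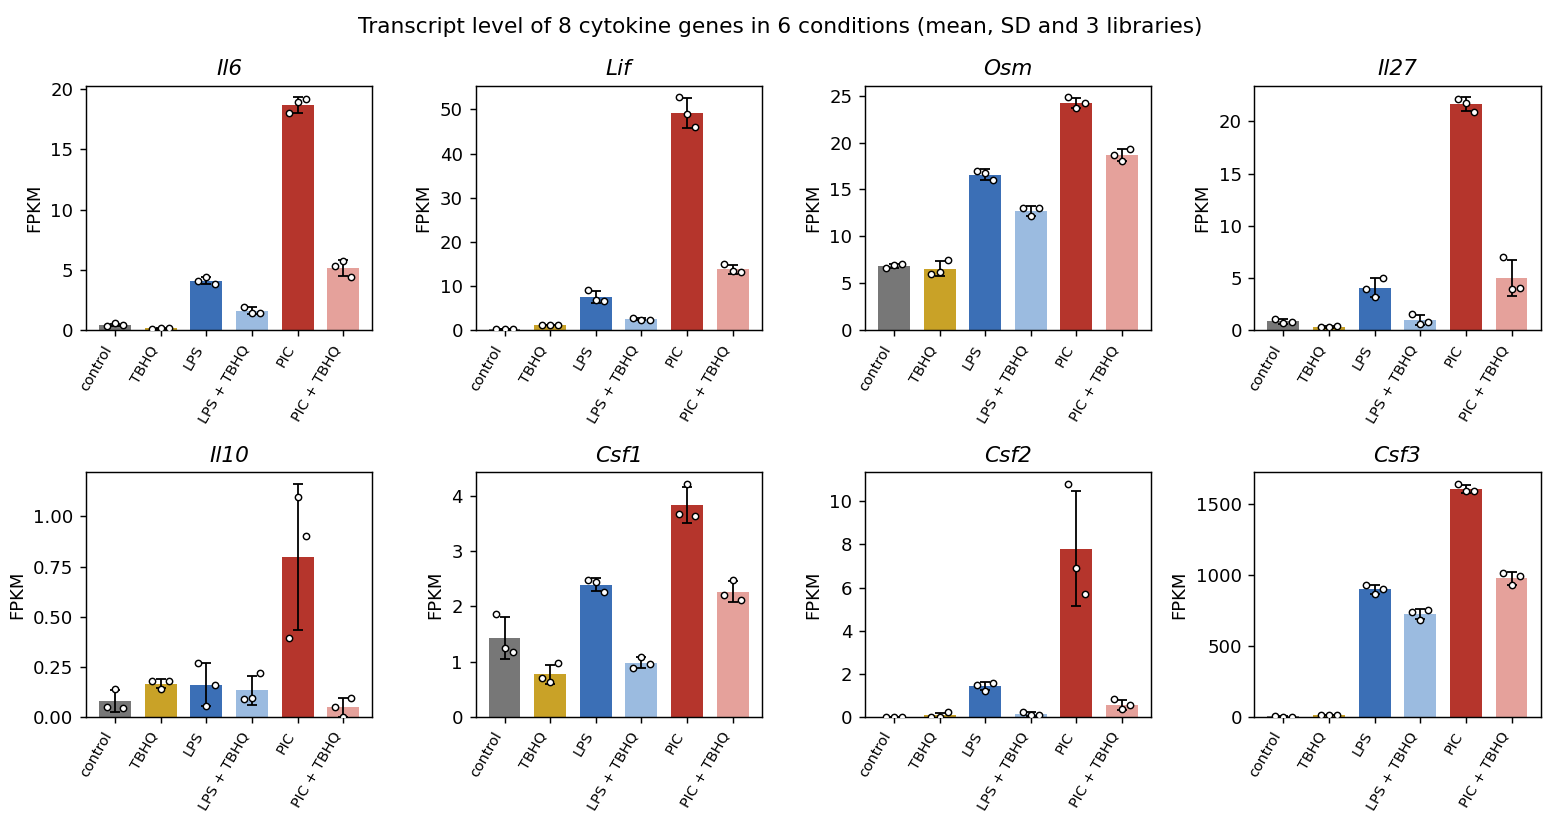
Transcript level (y axis, FPKM, from 0 on a linear scale of its own for each gene) of 8 cytokine genes in 6 conditions (x axis). Bars are means of 3 libraries, lines are the SD and points are single libraries. For each of the genes the PIC libraries are the highest, and for Csf3 they sit near 1608 FPKM against 3.4 FPKM in the control.

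Il6, the founding cytokine of the family and an inducer of the acute phase response, was low at rest and highest with PIC. Control libraries had 0.402, 0.581 and 0.414 FPKM, and cells given TBHQ alone had 0.145, 0.202 and 0.169 FPKM. LPS gave 4.12, 4.39 and 3.83 FPKM and PIC gave 18, 18.9 and 19.2 FPKM. With TBHQ before the stimulus the values were 1.97, 1.44 and 1.48 FPKM for LPS and 5.31, 5.77 and 4.44 FPKM for PIC. The 6 conditions stood in the order TBHQ, control, LPS + TBHQ, LPS, PIC + TBHQ and PIC, and no neighbouring conditions overlapped. The transcript rose 8.71-fold with LPS (log2FC 3.12, SE 0.16, edgeR FDR 3.1e-17) and 39.3-fold with PIC (log2FC 5.3, SE 0.16, edgeR FDR 7.4e-27). TBHQ before the stimulus left 39.6% of the LPS level (log2FC -1.34, SE 0.15, edgeR FDR 8.7e-10) and 27.8% of the PIC level (log2FC -1.85, SE 0.11, edgeR FDR 4.8e-17). TBHQ alone lowered it as well (log2FC -1.43, SE 0.19, edgeR FDR 0.00111), on counts of 6, 8 and 7 against 15, 23 and 17. Il6 thus stayed above its resting level after TBHQ and a stimulus, 3.45-fold with LPS and 10.9-fold with PIC.

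Lif, which keeps mouse embryonic stem cells undifferentiated and acts on many tissues in inflammation, rose with every treatment. The control libraries held 0.314, 0.198 and 0.286 FPKM and the TBHQ libraries 1.21, 1.19 and 1.29 FPKM, a 4.62-fold rise after 4 h of TBHQ alone (log2FC 2.21, SE 0.19, edgeR FDR 9.5e-10). LPS libraries held 9.03, 6.95 and 6.54 FPKM and PIC libraries 52.7, 48.9 and 46 FPKM. LPS + TBHQ libraries held 2.83, 2.31 and 2.44 FPKM and PIC + TBHQ libraries 15, 13.4 and 13.2 FPKM. All 6 conditions were separate from their neighbours, in the order control, TBHQ, LPS + TBHQ, LPS, PIC + TBHQ and PIC. The rise over the control was 28-fold with LPS (log2FC 4.81, SE 0.23, edgeR FDR 3.8e-24) and 182-fold with PIC (log2FC 7.51, SE 0.19, edgeR FDR 1.4e-33). Before a stimulus TBHQ went with lower Lif, at 33.6% of the LPS level (log2FC -1.57, SE 0.16, edgeR FDR 4.4e-15) and 28.4% of the PIC level (log2FC -1.82, SE 0.083, edgeR FDR 3.9e-21). The change with TBHQ alone had the opposite sign at its earlier time, and the difference between these changes was not tested.

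Osm, a macrophage and T cell product close to Lif in structure, was already expressed at rest and moved least of the IL-6 type ligands. Its level was 6.59, 7.0 and 7.03 FPKM in the control and 6.02, 6.19 and 7.54 FPKM with TBHQ alone, and these conditions overlapped (log2FC -0.065, SE 0.10, edgeR FDR 0.613). LPS gave 17, 16.8 and 16 FPKM and LPS + TBHQ gave 13, 12.1 and 13 FPKM. PIC gave 24.8, 23.7 and 24.2 FPKM and PIC + TBHQ gave 18.7, 18.1 and 19.3 FPKM. All stimulated libraries lay above the resting ones, and each stimulus was separate from the same stimulus after TBHQ. Osm rose 2.4-fold with LPS (log2FC 1.26, SE 0.040, edgeR FDR 1.3e-16) and 3.48-fold with PIC (log2FC 1.8, SE 0.035, edgeR FDR 6.8e-22). With TBHQ beforehand it fell to 76.7% of the LPS level (log2FC -0.38, SE 0.044, edgeR FDR 4.5e-05) and to 77.7% of the PIC level (log2FC -0.36, SE 0.035, edgeR FDR 2.7e-05).

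Il27, the p28 subunit of a cytokine that shapes T cell responses, was low at rest. It had 1.08, 0.661 and 0.811 FPKM in the control and 0.287, 0.299 and 0.402 FPKM with TBHQ alone, the latter from 5, 5 and 7 counts. LPS gave 4.0, 3.21 and 5.0 FPKM and PIC gave 22.2, 21.8 and 20.9 FPKM. After TBHQ the values were 1.52, 0.59 and 0.837 FPKM with LPS and 7.01, 4.0 and 4.09 FPKM with PIC. LPS + TBHQ overlapped the control, and PIC + TBHQ overlapped LPS, while PIC alone stood clear of all other conditions. Il27 rose 4.74-fold with LPS (log2FC 2.24, SE 0.25, edgeR FDR 2.6e-08) and 25-fold with PIC (log2FC 4.64, SE 0.18, edgeR FDR 3.1e-19). With TBHQ before the stimulus it was at 24.3% of the LPS level (log2FC -2.04, SE 0.40, edgeR FDR 2.7e-07) and 23.6% of the PIC level (log2FC -2.09, SE 0.26, edgeR FDR 4.2e-12). LPS + TBHQ against the control was not called (log2FC 0.20, SE 0.40, edgeR FDR 0.698). The lower level with TBHQ alone was called (log2FC -1.34, SE 0.21, edgeR FDR 0.0264), and leaving out control replicate 1, control replicate 3, TBHQ replicate 1 or TBHQ replicate 2 ended that call, with edgeR FDR values of 0.111, 0.0501, 0.0778 and 0.0741 in a range of 0.0129 to 0.111 over all libraries left out. It also ended in limma on log2(FPKM + 1), at FDR 0.0623 and 0.163, where the range over settings was 0.00578 to 0.163.

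Csf3 showed the largest fitted rise among the genes that had counts in every library. Control libraries held 121, 54 and 54 counts (5.58, 2.35 and 2.26 FPKM), with replicate 1 above the other control libraries. TBHQ alone gave 370, 358 and 383 counts (15.4, 15.5 and 15.9 FPKM), all above the control, a 4.65-fold rise (log2FC 2.22, SE 0.42, edgeR FDR 4.0e-15). LPS gave 927, 865 and 903 FPKM and PIC gave 1642, 1590.5 and 1591 FPKM. These are 267-fold (log2FC 8.06, SE 0.42, edgeR FDR 5.6e-37) and 474-fold (log2FC 8.89, SE 0.42, edgeR FDR 1.6e-38) above the control. LPS + TBHQ libraries had 742, 681 and 751 FPKM and PIC + TBHQ libraries 1011, 926 and 991 FPKM. Each of these lay under the libraries of the stimulus alone, at 80.6% with LPS (log2FC -0.31, SE 0.052, edgeR FDR 1.2e-04) and 61.2% with PIC (log2FC -0.71, SE 0.043, edgeR FDR 6.4e-12), while LPS and PIC + TBHQ overlapped each other in FPKM. The fall with LPS was called by edgeR and was not called by DESeq2 (FDR 0.196) or by limma on FPKM, over a range of 3.3e-19 to 0.418 for the settings tried. As with Lif, the rise with TBHQ alone at 4 h stood beside a fall with TBHQ before a stimulus, and the difference between the changes was not tested.

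Csf1, the growth and survival factor of macrophages, covered the narrowest range of the colony-stimulating factors. It was at 1.86, 1.24 and 1.17 FPKM in the control and at 0.711, 0.637 and 0.966 FPKM with TBHQ alone. LPS gave 2.48, 2.44 and 2.25 FPKM, and LPS + TBHQ gave 0.883, 1.08 and 0.96 FPKM. PIC gave 3.66, 4.21 and 3.63 FPKM, and PIC + TBHQ gave 2.19, 2.48 and 2.11 FPKM. LPS + TBHQ lay under every control library and overlapped TBHQ alone, and PIC + TBHQ overlapped LPS. The rise was 1.68-fold with LPS (log2FC 0.75, SE 0.21, edgeR FDR 3.5e-05) and 2.67-fold with PIC (log2FC 1.42, SE 0.22, edgeR FDR 2.1e-11). TBHQ alone lowered Csf1 (log2FC -0.88, SE 0.27, edgeR FDR 7.5e-05), and TBHQ before a stimulus brought it to 40.8% of the LPS level (log2FC -1.29, SE 0.093, edgeR FDR 1.3e-08) and 59.4% of the PIC level (log2FC -0.75, SE 0.096, edgeR FDR 1.4e-05). LPS + TBHQ was the only stimulated condition with a tested gene of this group called under the control (log2FC -0.55, SE 0.23, edgeR FDR 0.0045), and that call ended without control replicate 1 (log2FC -0.31, edgeR FDR 0.117, over a range of 0.00129 to 0.117 across libraries left out). It also ended in limma on unfiltered log2(FPKM + 1), at FDR 0.08, in a range of 0.00151 to 0.08 over settings.

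Csf2 was not detected at rest and appeared with the stimuli. Its counts were 0, 0 and 0 in the control, 0, 0 and 3 with TBHQ, 17, 14 and 18 with LPS and 118, 77 and 77 with PIC. After TBHQ the counts were 3, 1 and 1 with LPS and 10, 4 and 7 with PIC. In FPKM the LPS libraries held 1.5, 1.22 and 1.57 and the PIC libraries 10.8, 6.93 and 5.68, so that the PIC libraries were all higher. Every library of a condition reached the minimum of the low-count filter only with LPS and PIC, so Csf2 had to differ from the control there and a fall from these conditions was favoured. Its tests in those comparisons are not read as results, and its fitted log2FC against a condition at 0 counts is not read as a fold. Against the floor of 3 counts per library it was at least 6.13-fold higher with LPS, at least 32.6-fold higher with PIC and at least 2.47-fold higher with PIC + TBHQ. With TBHQ before LPS it was 11.6-fold lower, with a 95% counting interval of 4.67 to 37.5. With TBHQ before PIC it was 13.2-fold lower, with a 95% counting interval of 8.45 to 21.6. These intervals are exact conditional ones on summed counts and cover counting error alone. In each of these pairs the 3 libraries with TBHQ lay under the 3 without it. Without LPS + TBHQ replicate 1, which held 3 of the 5 counts of its condition, the fitted log2FC against LPS went from -3.44 to -4.11.

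Il10 was near the floor in every condition except PIC. Its counts were 1, 3 and 1 in the control, 4, 3 and 4 with TBHQ, 5, 1 and 3 with LPS and 2, 2 and 5 with LPS + TBHQ. PIC gave 7, 20 and 20 counts and PIC + TBHQ gave 1, 0 and 2 counts. Only the PIC libraries stood apart, and the other 5 conditions overlapped their neighbours. On summed counts PIC was 10.1-fold higher, with a 95% counting interval of 4.05 to 32.7, than the control. PIC + TBHQ was 15.9-fold lower, with a 95% counting interval of 5.13 to 80.1, than PIC. Control replicate 2 held 3 of the 5 control counts, and PIC + TBHQ replicate 3 held 2 of the 3 in its condition. Each of these ratios thus leans on a single library, which the intervals do not cover. LPS against the control, 9 counts against 5, gave a ratio of 2.03 with an interval of 0.61 to 7.7, so a rise with LPS was not detectable at this depth. With no filter on low counts, Il10 was called higher in PIC vs control and in PIC vs LPS and lower in PIC + TBHQ vs PIC (edgeR FDR 6.2e-05, 0.00843 and 3.1e-05). Il10 was at the edge of the filter, which 2 PIC libraries reached and which asks for 3. With 1 library left out the filter asks for 2, and for 16 of the 18 libraries left out in turn Il10 was tested and called in these 3 comparisons. As it enters through PIC alone, these calls are not read as results.

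Csf2 is left out of the counts here, since the filter kept it only for its counts with LPS and PIC, and 6 tested genes are counted. TBHQ alone raised 2 of the 6, Csf3 and Lif, and lowered 3, Csf1, Il6 and Il27. Of all genes tested, 14.2% were called higher and 14.8% lower in that comparison. LPS raised 6 of 6, where 24% of all genes were called higher and 24.1% lower. PIC also raised 6 of 6, where 28.6% of all genes were called higher and 30.1% lower. After TBHQ, LPS against the control raised 4, Csf3, Lif, Osm and Il6, and lowered Csf1, beside 21.2% higher and 22.5% lower of all genes. After TBHQ, PIC against the control raised 6 of 6, beside 26.4% higher and 26% lower. The control libraries are shared by these 5 comparisons. The median log2FC of the 6 genes was 2.68 with LPS and 4.97 with PIC, against -0.0040 and -0.015 over all genes tested. With Csf2 at its bound the medians were 2.62 and 5.03. As the filter favoured the rise of Csf2, these 2 medians are not read as results. With TBHQ alone the median of the 6 genes was -0.47, from changes of either sign.

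Of the same 6 genes, TBHQ before a stimulus lowered 6 with LPS and 6 with PIC. Of all genes tested, 12.2% were called lower and 11.7% higher in LPS + TBHQ vs LPS, and 15.5% lower and 15.8% higher in PIC + TBHQ vs PIC. The median log2FC without Csf2 was -1.32 with LPS and -1.28 with PIC, against 0.0023 and 0.0089 over all genes tested. With Csf2 at its ratio of counts the medians were -1.34 and -1.82. As the filter favoured the fall of Csf2, these 2 medians are not read as results. Among the 6 genes, the share of the stimulated level that was left ran from 24.3% (Il27) to 80.6% (Csf3) with LPS and from 23.6% (Il27) to 77.7% (Osm) with PIC. On few counts, Csf2 was at ratios of 0.0859 with LPS and 0.0759 with PIC, and Il10 with PIC was at a ratio of 0.0627. The filter favoured the fall of Csf2, and Il10 stood apart through PIC alone, so neither is ranked with the 6 genes.

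**Figure D2:**
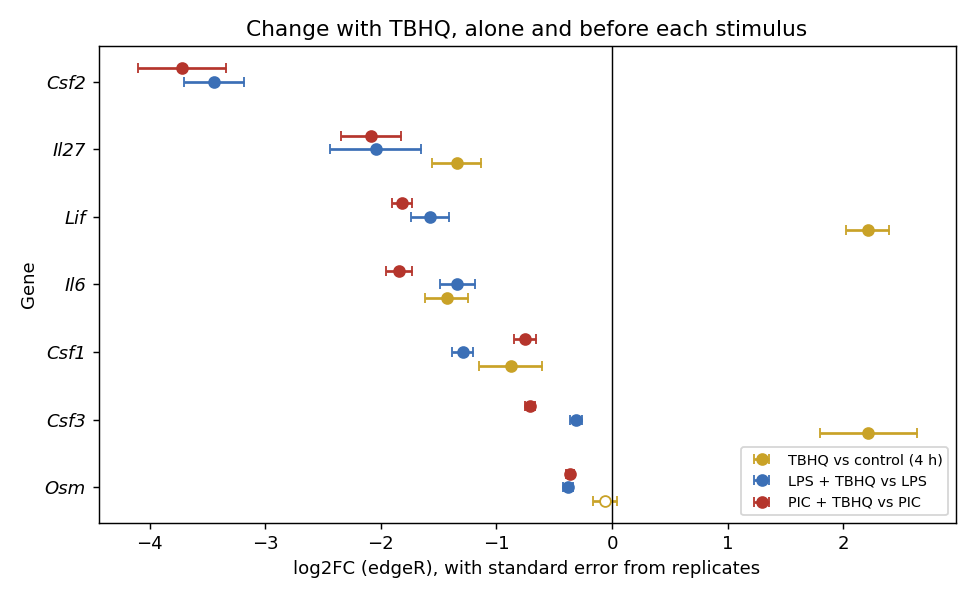
Change with TBHQ (x axis, log2FC from edgeR) of the 7 tested genes (y axis), for TBHQ alone at 4 h (yellow), before LPS (blue) and before PIC (red). Points are fitted values from 3 against 3 libraries, lines are the SE, and the open point was not called. The prior count narrows the SE at low counts, as for Csf2. Lif and Csf3 sit at 2.21 and 2.22 with TBHQ alone and under 0 before each stimulus. Csf2 has no point for TBHQ alone, where both conditions are at the floor, and its LPS value rests on 1 to 3 counts per library with TBHQ. It passed the low-count filter only through LPS and PIC.

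Whether the change with TBHQ differed between the stimuli was tested directly, as the change with PIC minus the change with LPS. Csf3 was the only one of the 7 tested genes called, with a larger fall before PIC (log2FC -0.40, SE 0.067, edgeR FDR 0.00506). DESeq2 did not call this difference (FDR 0.375), and the adjusted p ran from 1.1e-17 to 0.725 over the settings tried. Of all genes tested, 0.825% were called with a positive difference and 1.01% with a negative one. The difference was 0.54 for Csf1 (SE 0.13, edgeR FDR 0.165) and -0.51 for Il6 (SE 0.19, edgeR FDR 0.133), neither of them called. Osm, Il27, Lif and Csf2 had differences of 0.020, -0.043, -0.25 and -0.28, also not called.

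PIC at its dose gave higher levels than LPS at its dose for all 7 tested genes, 6 of 6 without Csf2, and the doses are of different agents. Of all genes tested, 14.9% were called higher and 12.8% lower in PIC vs LPS. Lif differed most (6.51-fold, log2FC 2.7, SE 0.15, edgeR FDR 1.6e-25). Csf2 was 5.32-fold higher, with a 95% counting interval of 3.91 to 7.36, close to Il27 (5.27-fold) and Il6 (4.51-fold). Csf3, Csf1 and Osm differed by 1.78-fold, 1.59-fold and 1.45-fold. After TBHQ the 7 genes were again called higher with PIC, 6 of 6 without Csf2, beside 11.9% of all genes called higher and 8.39% lower. The call for Csf3 there (log2FC 0.43, SE 0.060, edgeR FDR 5.5e-07) was not made by DESeq2 (FDR 0.0559), in a range of 4.2e-38 to 0.243 over settings. The call for Csf2 (edgeR FDR 0.0322) ended without LPS + TBHQ replicate 2, LPS + TBHQ replicate 3, PIC + TBHQ replicate 1 or PIC + TBHQ replicate 3, and the edgeR FDR ranged from 0.0244 to 0.156 across libraries left out. In limma on log2(FPKM + 1) it ended too, at FDR 0.056 and 0.14, in a range of 0.0182 to 0.14 over settings. Without LPS + TBHQ replicate 1 its log2FC went from 2.14 to 2.82. Scaling by total counts in place of TMM factors moved the median log2FC of all genes by -0.22 in PIC vs control, -0.15 in PIC + TBHQ vs control and -0.13 in PIC vs LPS. The called changes of the 7 genes kept their sign under it.

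Among other ligands and partners of the IL-6 family, Ebi3 and Clcf1 were tested. Ebi3, the partner of Il27, was far more abundant at rest than Il27 itself, at 19.5 ± 1.74 FPKM, and reached 43.3 ± 1.65 FPKM with LPS and 48.4 ± 2.41 FPKM with PIC (log2FC 1.3, SE 0.085, edgeR FDR 1.3e-18). With TBHQ beforehand it was at 89.2% of the LPS level (edgeR FDR 0.049) and 80.4% of the PIC level (edgeR FDR 1.3e-04). Clcf1, a ligand of the CNTF receptor, had 0 to 1 counts per control library and 4 to 13 with PIC. The ratio was 22.6, with a counting interval of 3.64 to 937. Clcf1 passed the filter only through stimulated libraries, so that a rise was favoured and is not read as a result. Il11, Ctf1, Cntf and Il31 were not tested, with at most 10 counts in any library.

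Of 8 receptors of the IL-6 family, 3 were tested. Il6st, the shared gp130 chain, had means from 7.07 FPKM with LPS to 8.13 FPKM with TBHQ, and it was called lower in LPS vs control (log2FC -0.12, SE 0.016, edgeR FDR 0.0426) and not called in PIC vs control (log2FC -0.013, SE 0.026, edgeR FDR 0.829). Il6ra, which binds IL-6 itself, fell from 6.32 ± 0.364 FPKM in the control to 3.7 ± 0.0391 FPKM with LPS and 2.92 ± 0.365 FPKM with PIC (log2FC -1.12, SE 0.11, edgeR FDR 8.0e-17), opposite in sign to its ligand. With TBHQ alone Il6ra was higher, at 8.0 ± 0.0665 FPKM (log2FC 0.34, SE 0.049, edgeR FDR 2.9e-05). The ligand-binding or partner chains Lifr, Osmr, Cntfr and Il31ra had at most 2 counts in any library, and Il27ra at most 6. Of the 3 receptors tested, 1 (Il6ra) was called lower in PIC vs control, near the 30.1% of all genes, with a median log2FC of -0.26 against -0.015 over all genes tested. In LPS vs control all 3, Il6st, Il6ra and Il11ra1, were called lower, beside 24.1% of all genes, at a median of -0.32, and with TBHQ before a stimulus 0 of the 3 were called, near the shares of all genes called up or down before LPS (11.7% and 12.2%) and before PIC (15.8% and 15.5%).

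Among 5 genes of the IL-10 system, the receptor chains Il10ra and Il10rb were tested and the ligands Il19, Il20 and Il24 had at most 3 counts. Il10ra, the ligand-binding chain, rose from 1.76 ± 0.134 FPKM to 4.43 ± 0.122 FPKM with LPS and 6.99 ± 0.23 FPKM with PIC (log2FC 1.97, SE 0.068, edgeR FDR 1.2e-14). It was lower with TBHQ before LPS (log2FC -0.57, SE 0.28, edgeR FDR 0.00162) and before PIC (log2FC -0.50, SE 0.096, edgeR FDR 0.0015). Il10rb changed little, from 12.2 to 13.9 FPKM with PIC (log2FC 0.17, SE 0.075, edgeR FDR 0.0237).

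Of 7 receptors and related ligands of the colony-stimulating factors, 5 were tested, and Il34 and Il3 were not, with at most 9 and 0 counts. Csf1r, the receptor of M-CSF and a macrophage marker, had 154 ± 4.58 FPKM in the control and fell to 91.7 ± 3.35 FPKM with LPS and 86.1 ± 5.18 FPKM with PIC (log2FC -0.85, SE 0.055, edgeR FDR 1.3e-20), while its ligand Csf1 rose. TBHQ went with higher Csf1r alone (log2FC 0.18, SE 0.025, edgeR FDR 3.3e-04), before LPS (log2FC 0.39, SE 0.037, edgeR FDR 2.3e-10) and before PIC (log2FC 0.45, SE 0.060, edgeR FDR 4.9e-12), in each case opposite in sign to Csf1. Csf2rb, the shared signalling chain for GM-CSF, rose from 4.86 ± 0.356 to 8.75 ± 0.379 FPKM with PIC (log2FC 0.83, SE 0.070, edgeR FDR 2.5e-13) and was lower with TBHQ before LPS (log2FC -0.46, SE 0.059, edgeR FDR 1.4e-06) and before PIC (log2FC -0.24, SE 0.048, edgeR FDR 0.0036). Its close relative Csf2rb2, whose similar sequence may share reads with it, had the largest fall of the list with TBHQ before LPS (log2FC -0.59, SE 0.062, edgeR FDR 1.3e-08). Csf2ra, the chain that binds GM-CSF, rose with PIC (log2FC 0.51, SE 0.042, edgeR FDR 4.0e-11). Csf3r, the G-CSF receptor, stayed near 0.962 FPKM in the control, 1.17 with LPS and 1.22 with PIC, neither change called (edgeR FDR 0.246 and 0.153), and was lower with TBHQ alone (log2FC -0.82, SE 0.14, edgeR FDR 0.00298). Of the 5, 3 were called higher and 1 lower in LPS vs control, beside 24% and 24.1% of all genes, and the numbers were the same in PIC vs control, beside 28.6% and 30.1%. With TBHQ before either stimulus 2 were called higher (Csf1r and Csf2ra) and 2 lower (Csf2rb and Csf2rb2). The shares of all genes were 11.7% and 12.2% with LPS and 15.8% and 15.5% with PIC.

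All 10 genes of JAK-STAT signalling and feedback were tested, and 9 are counted without Cish, which passed the filter only through LPS, PIC and PIC + TBHQ. In PIC vs control 6 of the 9 were called higher and 0 lower, beside 28.6% and 30.1% of all genes, with a median log2FC of 0.56. In LPS vs control 6 were higher and 1 lower, beside 24% and 24.1%, with a median of 0.41. TBHQ lowered 4 of 9 before LPS and 5 of 9 before PIC, beside 12.2% and 15.5% of all genes, and raised 0. Socs3, the feedback inhibitor of gp130 receptors that STAT3 induces, rose from 2.46 ± 0.0529 FPKM to 43.8 ± 1.83 FPKM with LPS and 70.2 ± 2.77 FPKM with PIC (log2FC 4.82, SE 0.036, edgeR FDR 1.2e-36). With TBHQ before the stimulus it was at 24.3 ± 0.731 FPKM (log2FC -0.85, SE 0.042, edgeR FDR 5.6e-17) and 43.2 ± 2.05 FPKM (log2FC -0.69, SE 0.051, edgeR FDR 2.9e-15). TBHQ alone raised it to 4.18 ± 0.122 FPKM (log2FC 0.76, SE 0.031, edgeR FDR 1.5e-08). Cish, a STAT5 target and inhibitor, had 0 to 2 counts in the control, 20 to 32 with LPS and 30 to 56 with PIC. It was 42.1-fold higher, with a 95% counting interval of 14 to 207, in PIC vs control. The control held 3 counts in total, 2 of them in a single library, so that the ratio leans on it. As the filter kept Cish for its counts with the stimuli, a rise over the control was favoured and is not read as a result. After TBHQ, Cish had 3 to 7 counts with LPS, 6.37-fold lower, with a 95% counting interval of 3.57 to 12.2. This fall from LPS was favoured by the filter as well and is not read as a result. With PIC after TBHQ, Cish had 14 to 25 counts, 2.13-fold lower, with a 95% counting interval of 1.53 to 2.98. Jak2, the kinase used by GM-CSF and G-CSF receptors, rose from 7.94 to 19.1 FPKM (log2FC 1.25, SE 0.057, edgeR FDR 4.1e-21).

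The 9 known regulators of cytokine transcripts were all tested, and 8 are counted without Maf, which passed the filter only through LPS. Of the 8, 7 rose with LPS and 8 with PIC, beside 24% and 28.6% of all genes, with medians of 1.21 and 1.5. With TBHQ alone 5 rose and 1 fell, beside 14.2% and 14.8% of all genes. TBHQ lowered 4 of 8 before LPS, beside 12.2%, and 6 of 8 before PIC, where 2 others rose, beside 15.5% lower and 15.8% higher. The difference between the TBHQ changes was called for 4 of the 8, Atf3, Rc3h1, Zfp36 and Nfkbiz, each with a negative value, beside 1.01% of all genes. Nfkbiz, a nuclear cofactor of NF-kB needed for Il6 transcription, went from 6.98 ± 0.65 to 40.9 ± 1.49 FPKM with PIC (log2FC 2.54, SE 0.083, edgeR FDR 4.0e-30). Zfp36, which destabilises AU-rich cytokine transcripts, went from 19.7 ± 0.608 to 97.3 ± 3.67 FPKM (log2FC 2.28, SE 0.039, edgeR FDR 2.5e-30). Maf, an activator of Il10, had 1 to 3 counts in the control, 29 to 40 with LPS, 4 to 7 with LPS + TBHQ, 5 to 15 with PIC and 0 to 5 with PIC + TBHQ. PIC was 5.03-fold higher, with a 95% counting interval of 2.04 to 14.9, over the control. With TBHQ before LPS, Maf was 6.92-fold lower, with a 95% counting interval of 4.11 to 12.4. As Maf passed the filter only through LPS, that fall was favoured and is not read as a result. With TBHQ before PIC it was 4.07-fold lower, with a 95% counting interval of 1.74 to 11. A single library held 5 of the 7 counts with PIC + TBHQ, so that this ratio leans on it.

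The transcripts most like each gene were sought among 10451 genes with a mean of at least 50 counts, by Pearson r of log2 CPM over the 18 libraries, which share their 6 conditions. The r is a description of these libraries, and it compares the pattern over them and not the size of a change. Txndc9 rose by a log2FC of 0.34 with LPS and 0.59 with PIC, against 3.12 and 5.3 for Il6. Ccl5 rose by 5.18 and 7.23, against 1.26 and 1.8 for Osm. For Il6 they were Txndc9 (r = 0.990), Mpeg1 (r = 0.990) and C3 (r = 0.990), the last being complement C3. For Lif they were Chd7 (r = 0.992), Rnf19b (r = 0.992) and Nfkbia (r = 0.989), which include the NF-kB inhibitor gene Nfkbia. For Osm they were Ccl5 (r = 0.992), Il1rn (r = 0.989) and Hk1 (r = 0.989). For Il27 they were Slfn2 (r = 0.985), Ifih1 (r = 0.984) and Tiparp (r = 0.977), of which Ifih1 encodes the RNA sensor MDA5. For Csf1 they were Parp14 (r = 0.978), Slfn5 (r = 0.974) and Oasl2 (r = 0.973), and for Csf3 Cpd (r = 0.993), Cxcl2 (r = 0.993) and Tnfrsf1b (r = 0.991). Leaving out 1 library or changing the scaling left 1 to 3 of the named genes in place for Il6, Osm, Il27 and Csf1 and 2 to 3 for Lif and Csf3.

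By position, 4 of the 8 genes lie on chromosome 11. The count table, whose build the sources name as GRCm38/mm39, places Osm (ENSMUSG00000058755) at chr11:4186420-4191026 and Lif (ENSMUSG00000034394) at chr11:4207557-4222514, both on the forward strand and 16530 bases apart with 1 annotated gene between them. It places Csf2 (ENSMUSG00000018916) at chr11:54138097-54140493 on the reverse strand, 15635 bases from Il3 with no gene between them, and Csf3 (ENSMUSG00000038067) at chr11:98592089-98594455 on the forward strand. Il3 had 0 counts in all libraries while its neighbour Csf2 was detected with the stimuli. The other genes are Il6 (ENSMUSG00000025746) at chr5:30218112-30224979, Il10 (ENSMUSG00000016529) at chr1:130947582-130952711, Il27 (ENSMUSG00000044701) at chr7:126188182-126194113 and Csf1 (ENSMUSG00000014599) at chr3:107648364-107667785. Csf2 overlaps the long noncoding gene Gm12223 on the opposite strand by 2068 bases, and Gm12223 had 0 counts in every library. The end of Il27 overlaps the opposite-strand gene Apobr, which had 1645 to 3467 counts, by 103 bases. The paper describes the libraries as strand-specific and the labels name directional and non-directional ones, and whether reads were counted by strand is not given.

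The 250 bases before the transcription start are shown for the 4 genes with an entry in the RefSeq promoter table. Its build is GRCm38.p6, and positions are of that build only. Osm, Il10, Il27 and Csf3 had no entry and are named only. Il6, Lif and Csf1 were higher with both stimuli and lower with TBHQ before each stimulus in all libraries, as were Osm, Il27 and Csf3. For Csf2 these changes were favoured by the filter and are not read as results. Each is written 5′ to 3′ along its gene, with matches to the NF-kB consensus in capitals on whichever strand they were found.
Il6, GRCm38.p6 chr5:30012864-30013113, forward strand: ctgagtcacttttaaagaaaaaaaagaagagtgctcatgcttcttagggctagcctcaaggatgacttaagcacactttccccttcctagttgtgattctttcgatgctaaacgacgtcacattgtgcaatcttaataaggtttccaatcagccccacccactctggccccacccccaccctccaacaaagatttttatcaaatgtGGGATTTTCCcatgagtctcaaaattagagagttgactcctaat
Lif, GRCm38.p6 chr11:4257318-4257567, forward strand: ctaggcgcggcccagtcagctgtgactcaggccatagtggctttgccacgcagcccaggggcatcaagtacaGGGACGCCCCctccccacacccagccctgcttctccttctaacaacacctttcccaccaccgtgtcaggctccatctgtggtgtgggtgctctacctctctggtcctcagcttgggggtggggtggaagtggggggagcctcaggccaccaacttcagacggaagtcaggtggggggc
Csf1, GRCm38.p6 chr3:107760470-107760719, reverse strand: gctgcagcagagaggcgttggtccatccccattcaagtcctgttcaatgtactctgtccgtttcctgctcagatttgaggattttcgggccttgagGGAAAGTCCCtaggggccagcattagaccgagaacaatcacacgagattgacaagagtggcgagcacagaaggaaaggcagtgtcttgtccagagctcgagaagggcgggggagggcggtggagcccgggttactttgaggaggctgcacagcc
Csf2, GRCm38.p6 chr11:54249900-54250149, reverse strand: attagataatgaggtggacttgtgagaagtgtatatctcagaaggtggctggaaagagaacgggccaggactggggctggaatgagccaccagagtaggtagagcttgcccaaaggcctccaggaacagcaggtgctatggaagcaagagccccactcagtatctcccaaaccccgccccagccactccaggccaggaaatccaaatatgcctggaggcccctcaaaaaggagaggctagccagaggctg

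Matches were searched on both strands for the NF-kB consensus, AP-1 (TGANTCA), C/EBP (TTNCNNAA), the core of the interferon-stimulated response element (GAAANNGAA) and the core of the antioxidant response element (TGACNNNGC). Among the same windows of all 32851 promoters in the table, 7.25% held an NF-kB match, 6.75% AP-1, 36.8% C/EBP, 7.13% the interferon-response core and 10.2% the antioxidant core. The Il6 window had an NF-kB match 44 to 35 bases before the start, a C/EBP match 128 to 121 bases before it and an AP-1 match 249 to 243 bases before it. The Lif window had an NF-kB match at 178 to 169 bases, AP-1 at 228 to 222 bases and an antioxidant core at 241 to 233 bases. Csf1 had an NF-kB match at 154 to 145 bases and no other. Csf2 had C/EBP at 145 to 138 bases and an interferon-response core at 199 to 191 bases. AP-1 and the antioxidant core share the letters TGA and can overlap, which they did not in these windows. These are matches of letters, and binding was not measured.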

How the data were processed

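Poly(A) RNA from 18 cultures was sequenced as paired reads. Per the labels and the submitters' processing notes, the authors aligned reads with HISAT2 2.0.5, assembled transcripts with StringTie 1.3.3b and deposited whole-number counts per gene from featureCounts 1.5.0-p3, against a build named GRCm38/mm39. The authors also deposited FPKM values and a gene length in bases. These FPKM follow from the counts, the length and the depth of a library, with 1 constant per library of 0.943 to 1.12. No other sample column was present.

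Genes kept by filterByExpr were tested with the quasi-likelihood test of edgeR 4.0.16 (R 4.3.3), with TMM scaling, 1 coefficient per condition and all 18 libraries in the fit (common dispersion 0.00192). The study's own test, DESeq2 (1.42.0), and limma 3.58.1 on log2(FPKM + 1) or log2(FPKM + 0.1) were alternatives, with other scalings, filters, a replicate block and leaving out each library. The scripts were tested on simulated counts. Intervals at 95% on summed counts were exact and, like the floor of 3 counts, cover counting error only. Tables were made with Python 3.11.15, pandas 2.3.3 and scipy 1.17.1.

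Replicates differed by more than sampling noise, with a chi-square per degree of freedom of 2.49 to 4.61 over 18 pairs. The genes and lists were chosen with earlier results of these data known. Named from each list were the called genes with the 3 highest absolute log2FC in PIC vs control, the called gene with the highest in each comparison of TBHQ with a stimulus, and Il6st, Csf1r, Csf2rb, Csf3r, Il10ra, Ebi3 and Socs3 whatever their values. Maf, Cish and Clcf1 have few counts and are given by counts or ratios. Promoter sequences are from RefSeq.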

Additional observations from a re-analysis of the deposited data

Results flagged for a closer look

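The fall of Csf3 with TBHQ was larger before PIC than before LPS by a test of the difference itself, with a log2 difference of -0.40 (SE 0.067, edgeR FDR 0.00506). With LPS the libraries went from 927, 865 and 903 FPKM to 742, 681 and 751 FPKM with TBHQ, and with PIC from 1642, 1590.5 and 1591 to 1011, 926 and 991 FPKM. The LPS + TBHQ libraries were deeper than the LPS libraries, and before scaling replicate 3 had 18609 counts with TBHQ against 18247 without. The value was -0.44 to -0.36 when any 1 library was left out, and DESeq2 gave -0.41 with an FDR of 0.375, in a range of 1.1e-17 to 0.725 over settings.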

How the results depend on the processing

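The log2FC values of the 7 tested genes in 10 comparisons were recomputed under 10 other settings, 686 values in all. Of these, 662 kept their direction and their side of the threshold, 17 lost the call, 4 gained one and 3 changed sign. The changes of sign were for differences near 0 that were not called: Osm in the difference between the TBHQ changes (-0.0013 with limma on log2(FPKM + 1), with or without the filter) and Il27 in the same contrast (0.0011 with total library size). Leaving out 1 library at a time gave 1260 values, of which 9 lost the call, 12 changed sign and 1 became 0 (Csf2 in TBHQ vs control without TBHQ replicate 3, which held its only counts there), none of the last 13 called. The fitted log2FC of Csf2 there ran from 0 to 3.62, with both conditions at the floor, and is not read as a fold. Over libraries left out, the log2FC ran from -0.25 to 0.46 for Il27 in LPS + TBHQ vs control, and, for the difference between the TBHQ changes, from -0.014 to 0.040 for Osm, -0.36 to 0.41 for Il27 and -0.62 to 0.39 for Csf2.

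With the stricter threshold of the study (FDR under 0.01 and absolute log2FC above 2), the number of genes called was 2 of 5 in TBHQ vs control, 2 of 5 in LPS + TBHQ vs control, 2 of 7 in LPS + TBHQ vs LPS, 2 of 7 in PIC + TBHQ vs PIC, 4 of 7 in PIC vs LPS, 2 of 7 in PIC + TBHQ vs LPS + TBHQ and 0 of 1 for the difference between the TBHQ changes, and 5 of 7 in each of LPS vs control, PIC vs control and PIC + TBHQ vs control, as a limit on the fold must give. Without Csf2, most of whose calls the filter favoured, it was 1 of 6 in LPS + TBHQ vs LPS and in PIC + TBHQ vs PIC, 3 of 6 in PIC vs LPS and 4 of 6 in the last 3. The difference between the TBHQ changes was called for 0 genes by DESeq2 and by limma on log2(FPKM + 0.1), and for 2 genes, Il6 and Csf2, by limma on log2(FPKM + 1) with or without the filter. The cause was not tested. A mean of at least 50 counts removed Csf2 from testing. With the replicate block the number of genes called was the same in all 10 comparisons, for example 5 in TBHQ vs control and, without Csf2, 6 of 6 in LPS vs control. Libraries with the same replicate number did not deviate together (r from -0.044 to 0.065 over 45 pairs). No pairing by number was thus seen over all genes tested, and shared handling of cultures was not tested. Depth limits Il10 and Csf2, with 0 to 20 counts in every condition but Csf2 with PIC, and 3 cultures of 1 line limit the rest.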
